A study of Mus with 9 samples.

Results

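The interleukin and TNF family genes are the protein-coding genes whose symbols begin with Il and a digit, Tnfsf or Tnfrsf, together with Tnf itself and Tnfaip3. The symbols selected 118 genes of the 54532 in the table, and the families were chosen with earlier results of these data known. Il11ra2 was listed under 3 gene identifiers, so the 118 genes carried 116 distinct symbols. At least 1 read was counted for 103 of them, 72 passed the filter on low counts and entered the tests, and 15 had a count of 0 in each of the 9 libraries.

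Kidney RNA was sequenced from male C57BL/6 mice in 3 groups of 3 mice, with 1 library per mouse. All mice had undergone removal of 1 kidney at the age of 18 months. The 18 mo mice were killed 1 week after surgery, when the injections of the other groups began. The 21 mo mice received sodium chloride solution intraperitoneally for 12 weeks, and the 21 mo/O304 mice received O304, an activator of the energy sensor AMPK, at 10 mg/kg/day by the same route for 12 weeks. The 18 mo and 21 mo groups therefore differed in age, in time after surgery and in injections, and these cannot be told apart. The study asked how the kidney differed between these ages and whether O304 altered it.

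Interleukins and TNF ligands are secreted or membrane-bound messengers between immune, epithelial and stromal cells. Interleukin receptors signal mainly through JAK kinases and STAT factors or, in the IL-1 and IL-17 families, through adaptors that lead to NF-kB, and TNF receptors recruit TRAF adaptors or, through a death domain, the machinery of cell death. In the kidney, tubular epithelium, resident macrophages and infiltrating leukocytes all make and sense these messengers, and soluble antagonists and decoy receptors limit them. Tnfaip3 encodes A20, an enzyme that is induced by NF-kB and restrains it. In bulk tissue, fewer or more cells of a type and less or more RNA per cell cannot be told apart.

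The libraries held 15636378 to 18396725 counts on genes, so that 1 count equalled 0.0458 to 0.0669 CPM (counts scaled to library size, with TMM normalization). A count of 0 allows a level of up to 3 counts, or 0.137 to 0.201 CPM, for counting error alone. The 21 mo mice varied most: the mean correlation between log2 CPM of replicates was 0.924 there, against 0.979 in the 18 mo mice and 0.975 in the 21 mo/O304 mice. Replicate 3 of the 21 mo group stood apart, and replicate 1 lay nearer to the 18 mo mice than replicates 2 and 3 did. Where leaving out 1 library moved a printed log2 fold change by more than 1.5 times in fold, the value without that library stands beside it. Proximal tubule, podocyte and thick limb markers were present in every library.

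In the 21 mo mice, 61 of the 72 tested members were higher on average than in the 18 mo mice (52.7% of all genes). In the 21 mo/O304 mice, 57 of 72 were lower than in the 21 mo mice (51.8% of all genes). None passed an adjusted p of 0.05 in the edgeR quasi-likelihood test. Both comparisons use the same 21 mo mice, so opposite signs in them are not independent of each other, and their values are only set side by side. The median log2 fold change of the members was 0.77 between 21 mo and 18 mo, against 0.03 over all 15902 genes tested. It was 0.76 when members whose libraries in a group all held 3 counts or fewer were placed at their bound. Between 21 mo/O304 and 21 mo the median was -0.57 for the members and -0.02 for all genes. Among the 51 members with at least 10 counts in every library, the medians were 0.63 and -0.45. Of the 72 members, 7 (Il1f6, Il1f9, Il1r2, Tnfsf8, Tnfsf9, Tnfrsf4 and Tnfrsf17) reached the level of the filter in 3 libraries or fewer. Those of Il1r2 were the 21 mo mice and those of Tnfrsf17 were 21 mo/O304 mice, so these genes entered the tests through the group in which they were high. Without the 7, a choice made after the data were seen, the medians of the other 65 members were 0.64 and -0.48.

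With 0 members called between 21 mo and 18 mo, the background was as low, since 3 of the 15902 genes (0.0189%) were called, all higher in the 21 mo mice. The smallest adjusted p of a member was 0.0626, for Il1rn and Il22ra1. At an unadjusted p under 0.05, 28 members were higher and 4 lower in the 21 mo mice, where 14% and 12% of all genes were. Without the 7 members that reached the filter in 3 libraries or fewer, 24 of 65 were higher and 4 lower. The libraries of the 2 groups did not overlap for 23 members that were higher and 6 that were lower in the 21 mo mice (13.5% and 15.3% of all genes). Between 21 mo/O304 and 21 mo, 0 members and 0% of all genes were called, and the smallest adjusted p of a member was 0.175. At an unadjusted p under 0.05, 2 members were higher and 23 lower in the 21 mo/O304 mice, against 8.27% and 12.4% of all genes. Without the same 7 members, 2 of 65 were higher and 19 lower. In that comparison 5 members lay wholly above and 13 wholly below the 21 mo mice (10.8% and 10.5% of all genes).

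The shift was not even among the 21 mo mice. Of the 72 tested members, 34 lay above all 3 of the 18 mo mice in replicate 1, 49 in replicate 2 and 57 in replicate 3, where 31.1%, 37.3% and 41.3% of all genes did. The median over the members of log2 CPM minus each gene's own 18 mo mean was 0.18, 0.44 and 1.21 in these libraries. Replicate 3 held the highest level of all 9 libraries for 46 members (63.9%), and for 28.9% of all genes. In the 21 mo/O304 mice the same median was 0.05, 0.33 and 0.08. With replicate 3 of the 21 mo mice left out, the median log2 fold change of the members was 0.41 between 21 mo and 18 mo and -0.15 between 21 mo/O304 and 21 mo. In that setting 22 members were higher in the 21 mo mice and 10 lower in the 21 mo/O304 mice at an unadjusted p under 0.05, where 10% and 6.95% of all genes were.

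**Figure D1:**
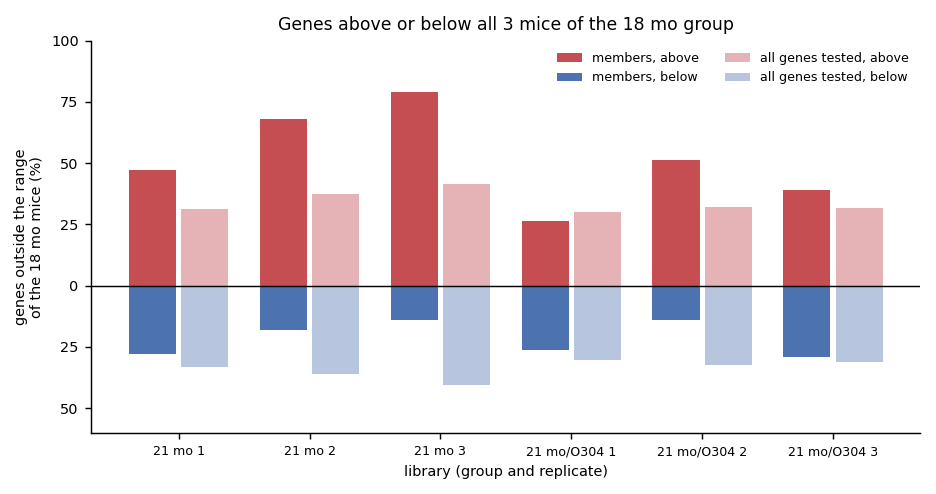
Share of genes above (upward bars) and below (downward bars) all 3 mice of the 18 mo group, in percent, for the 72 tested members and for all 15902 genes tested, in each 21 mo and 21 mo/O304 library. The share of members above the range was 47.2%, 68.1% and 79.2% in the 21 mo mice, and in 21 mo/O304 replicate 1 the share of members above lay below that of all genes.

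Other analyses called members. Without replicate 1 of the 21 mo group, edgeR called 32 of 77 members higher and 2 lower in the 21 mo mice (13.6% and 11.9% of all genes), and 1 higher and 28 lower in the 21 mo/O304 mice against the 21 mo mice (10.6% and 12.6%). DESeq2 called 20 of 78 higher and 2 lower between 21 mo and 18 mo (6.9% and 5.41% of all genes), and 1 of 75 higher and 11 lower between 21 mo/O304 and 21 mo (1.71% and 4.04%). Limma voom with sample quality weights called 34 of 72 higher and 7 lower between 21 mo and 18 mo (26.3% and 26.6% of all genes), so that members lower were rarer than genes in general. It called 7 higher and 24 lower between 21 mo/O304 and 21 mo (21.2% and 19.8%). With every gene of at least 1 count in the fit, edgeR called 7 of 103 members higher between 21 mo and 18 mo (1.43% of all genes). The members that DESeq2, limma voom and edgeR without replicate 1 each called higher in the 21 mo mice numbered 15, and 6.31% of all genes tested in these analyses were called so. They were Il1f6, Il1f9, Il33, Il1rn, Il1r2, Il18bp, Il18r1, Il18rap, Il6ra, Tnf, Tnfsf8, Tnfsf13b, Tnfrsf1a, Tnfrsf1b and Tnfaip3. Of these, Il1f6, Il1f9, Il1r2 and Tnfsf8 reached the level of the filter in only 3 libraries each. Il11ra1 and Il22ra1 were called lower by each, as were 5.05% of all genes. Those called lower in the 21 mo/O304 mice by each numbered 9 (3.75% of all genes), which were Il1rn, Il1r2, Il18bp, Il18r1, Il18rap, Tnfsf13b, Tnfrsf1a, Tnfrsf12a and Tnfaip3. Il1r2 reached the level of the filter in the 21 mo mice alone, so its calls do not count as support for a difference.

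**Figure D2:**
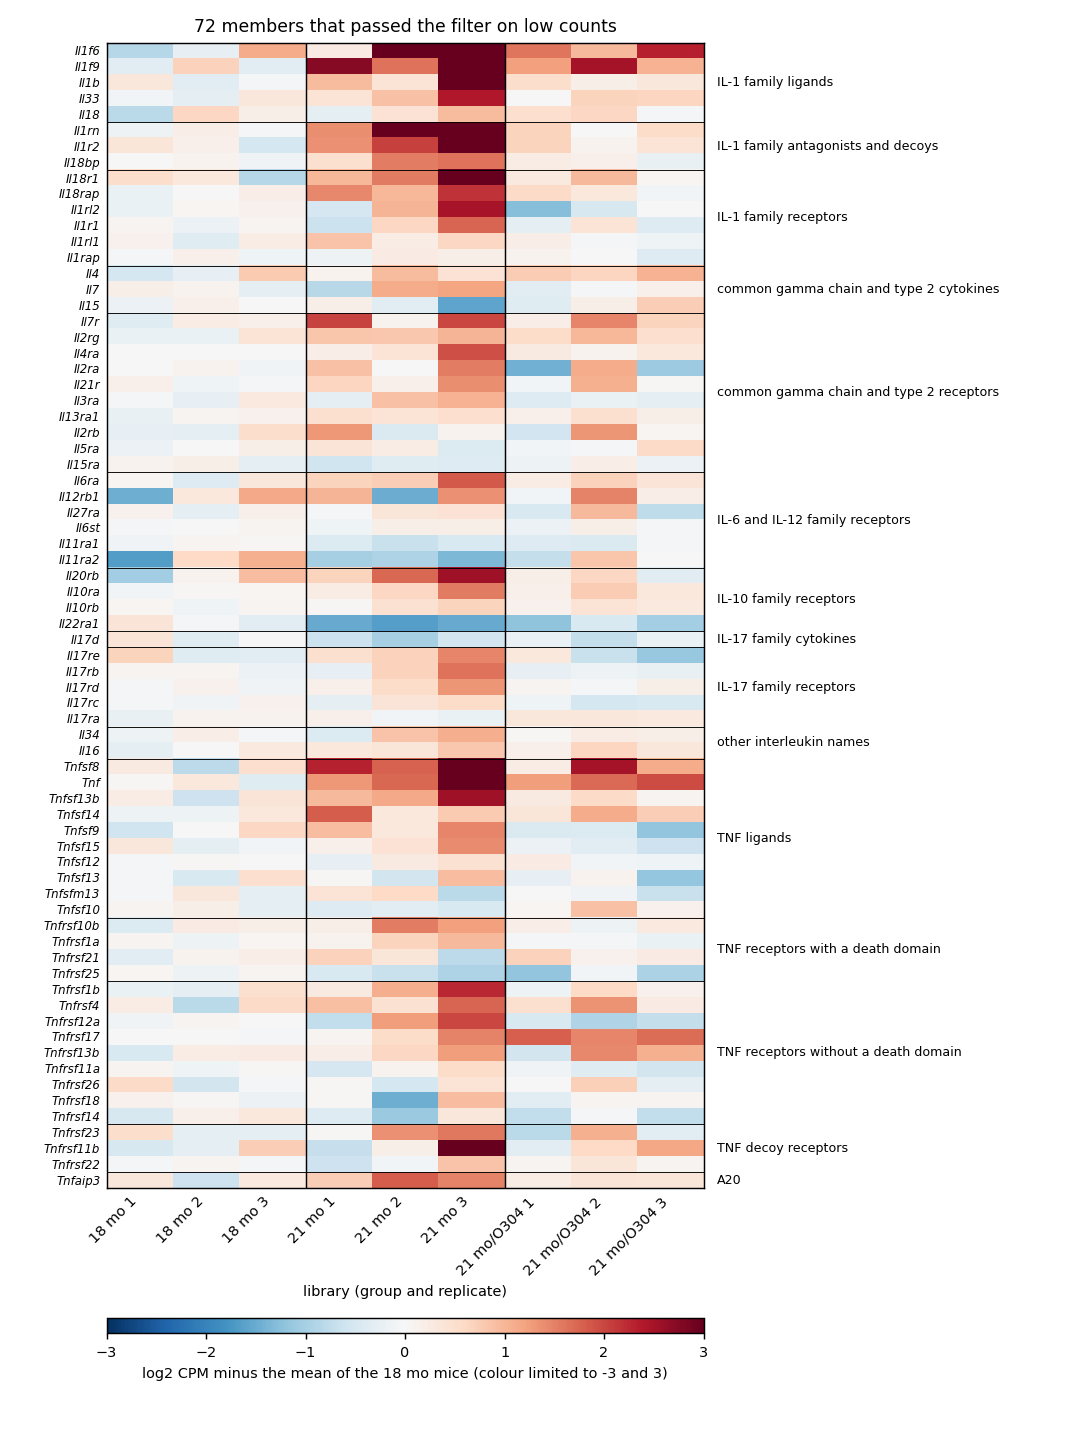
Difference of log2 CPM from the mean of the 18 mo mice for the 72 tested members (rows, grouped by role and ordered within a role by the 21 mo mean) in the 9 libraries (columns). Red marks levels above and blue levels below the 18 mo mean, and the 21 mo replicate 3 column holds the highest level of 46 of the 72 members.

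Receptors led the levels. In FPKM, which scales fragments by gene length and library size, 30 members averaged above 1 over the 9 libraries. Tnfrsf21, which encodes death receptor 6, was the most abundant, at 85.9 ± 16.5 FPKM (SD, n = 3) in the 18 mo mice. Tnfrsf1a, the main receptor of TNF, followed at 25.9 ± 1.97 FPKM, and Il11ra1, the IL-11 receptor subunit, at 23.3 ± 1.86 FPKM, a pair that did not differ beyond their spread. Il34, a ligand of the macrophage receptor Csf1r, stood at 19.8 ± 2.73 FPKM. Il13ra1, Il6st and Tnfrsf12a lay close together, at 17.6 ± 2.36, 16.8 ± 0.939 and 15.9 ± 1.27 FPKM, and their spreads overlapped. Il6st encodes gp130, the shared signalling chain of the IL-6 family, and Tnfrsf12a the receptor of the ligand TWEAK. Tnfsf10, which encodes the death ligand TRAIL, was the most abundant TNF ligand at 11.8 ± 1.89 FPKM and lay above Il17rc and Il10rb at 8.73 ± 0.73 and 6.71 ± 0.425 FPKM. By contrast, Tnf itself reached 0.108 ± 0.0404 FPKM and Il1rn 0.0632 ± 0.0119 FPKM in the 18 mo mice.

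**Figure D3:**
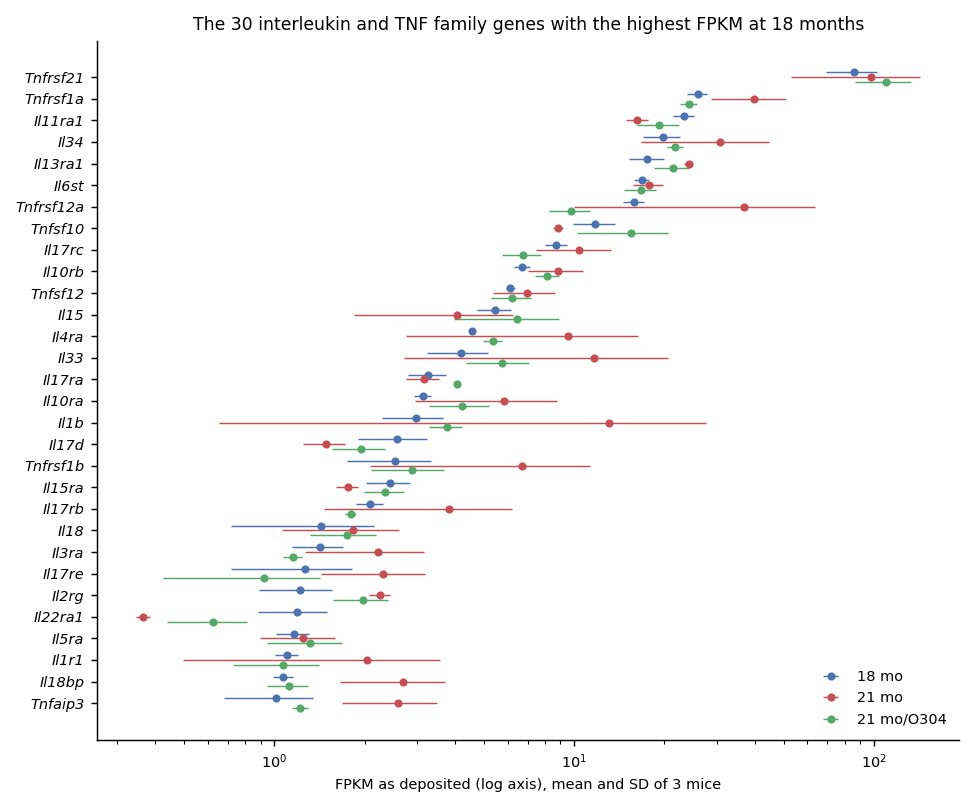
Mean FPKM (points) and SD (bars) of 3 mice per group for the 30 members with the highest mean FPKM at 18 months, on a log axis. Tnfrsf21 lay above all others, and the bars of Il1b, Il33 and Tnfrsf12a are wide in the 21 mo group.

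Among the IL-1 family ligands, all 5 that passed the filter had higher means in the 21 mo mice and lower means in the 21 mo/O304 mice than in the 21 mo mice, and the median log2 fold changes were 2.15 and -1.03. Il1b, the inflammatory cytokine IL-1 beta (chromosome 2, 129364570 to 129371139, minus strand, GRCm38), measured 7.37, 4.56 and 5.66 CPM in the 18 mo mice, 11.3, 7.67 and 58.7 in the 21 mo mice and 8.37, 6.5 and 7.32 in the 21 mo/O304 mice. All 3 of the 21 mo mice lay above the 18 mo mice, but replicate 3 held most of the difference and the 21 mo/O304 mice overlapped with both groups. The log2 fold change of Il1b was 2.15 (standard error 0.68, adjusted p = 0.102) between 21 mo and 18 mo and -1.81 (standard error 0.67, adjusted p = 0.198) between 21 mo/O304 and 21 mo, and without replicate 3 it was 0.68 and -0.35. An antisense gene, Il1bos, overlaps Il1b, and reads of these genes cannot be told apart here.

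Il33, an alarmin kept in the nucleus of epithelial and stromal cells, measured 11.6, 10.1 and 15.7 CPM in the 18 mo mice, 16.3, 22.5 and 65.7 in the 21 mo mice and 12.4, 19.7 and 19.1 in the 21 mo/O304 mice. The 21 mo mice lay above the 18 mo mice, again with replicate 3 far above the rest. Its log2 fold change was 1.48 (standard error 0.48, adjusted p = 0.106) and -1.03 (standard error 0.47, adjusted p = 0.252) in the comparisons with 18 mo and of 21 mo/O304 with 21 mo. It was 0.62 and -0.18 without replicate 3. Il1f6, which encodes the epithelial cytokine IL-36 alpha, was at 0, 0.0616 and 0.339 CPM in the 18 mo mice, 0.134, 9.89 and 3.89 in the 21 mo mice and 0.523, 0.298 and 0.955 in the 21 mo/O304 mice. Its high values were in replicates 2 and 3 of the 21 mo group, and replicate 1 lay within the range of the 18 mo mice. Its log2 fold changes were 5.01 (standard error 1.39, adjusted p = 0.0849) and -2.96 (standard error 1.18, adjusted p = 0.215). They were 3.81 and -1.78 without 21 mo replicate 2, and the first was 6.94 without 18 mo replicate 3, which held most of the reads of the 18 mo mice. Il1f9, the related IL-36 gamma, had 0, 2 and 0 counts in the 18 mo mice and 0.87, 0.341 and 1.05 CPM in the 21 mo mice. Il18 measured 0.743, 2.22 and 1.58 CPM in the 18 mo mice, 1.14, 1.93 and 2.79 in the 21 mo mice and 2.04, 2.21 and 1.34 in the 21 mo/O304 mice, and the groups overlapped. Il1a, the other IL-1 agonist, did not pass the filter and had at most 16 counts, in 21 mo replicate 3.

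The IL-1 family antagonists and decoys Il1rn, Il18bp and Il1r2 gave the 3 smallest p-values of all members between 21 mo/O304 and 21 mo. Il1rn also gave the smallest between 21 mo and 18 mo. Il1r2 passed the filter through the 21 mo mice alone, so its rank does not count as support for a difference. Il1rn, the IL-1 receptor antagonist (chromosome 2, 24336853 to 24351494, plus strand), measured 0.31, 0.431 and 0.339 CPM in the 18 mo mice, 1.14, 7.62 and 12.5 in the 21 mo mice and 0.64, 0.358 and 0.573 in the 21 mo/O304 mice. Each 21 mo mouse was above all mice of the other groups, by the least in replicate 1. Its mean was 19.4 times that of the 18 mo mice in the fit, a log2 fold change of 4.27 (standard error 0.79, adjusted p = 0.0626). Against the 21 mo mice, the 21 mo/O304 mice were lower by a log2 fold change of -3.74 (standard error 0.76, adjusted p = 0.175). Without replicate 3 the values were 3.56 and -3.04, and the adjusted p was 0.0625 and 0.226. Without replicate 1 the edgeR adjusted p was 0.00183 and 0.00268. Over all 16 alternatives of the processing, the adjusted p of Il1rn ranged from 9.45e-06 to 0.248 between 21 mo and 18 mo and from 0.000199 to 0.4 between 21 mo/O304 and 21 mo.

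Il1r2, a decoy receptor that binds IL-1 without signalling, was at 0.31, 0.246 and 0.113 CPM in the 18 mo mice, 0.736, 1.25 and 4.86 in the 21 mo mice and 0.407, 0.238 and 0.318 in the 21 mo/O304 mice. The groups did not overlap in either comparison, with log2 fold changes of 3.34 (standard error 0.78, adjusted p = 0.0702) and -2.81 (standard error 0.75, adjusted p = 0.175), but the gene passed the filter through the 21 mo mice alone. Without replicate 3 the values of Il1r2 were 2.12 and -1.6. Il18bp, the soluble protein that binds IL-18, was at 3.34, 3.57 and 3.11 CPM in the 18 mo mice, 4.68, 9.89 and 10.6 in the 21 mo mice and 3.9, 3.7 and 2.87 in the 21 mo/O304 mice. It was also without overlap between the 21 mo mice and either other group. Log2 fold changes of Il18bp were 1.33 (standard error 0.32, adjusted p = 0.0731) and -1.27 (standard error 0.32, adjusted p = 0.175), and without replicate 3 they were 1.11 and -1.05. Il18bp overlaps Numa1 and Il1r2 overlaps 2 predicted genes, so that some of their reads may belong to these.

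All 6 tested IL-1 family receptors had higher means in the 21 mo mice than in the 18 mo mice and lower means in the 21 mo/O304 mice than in the 21 mo mice. Il18rap, the accessory chain of the IL-18 receptor, measured 1.18, 1.36 and 1.58 CPM in the 18 mo mice, 3.88, 2.84 and 6.5 in the 21 mo mice and 2.09, 1.73 and 1.27 in the 21 mo/O304 mice. The 3 mice of the 21 mo group lay above the other 6. Log2 fold changes of Il18rap were 1.68 (standard error 0.38, adjusted p = 0.0691) and -1.37 (standard error 0.37, adjusted p = 0.175). Il18r1, its ligand-binding chain, measured 1.8, 1.54 and 0.622 CPM in the 18 mo mice, 2.54, 3.81 and 16.3 in the 21 mo mice and 1.51, 2.5 and 1.27 in the 21 mo/O304 mice, likewise without overlap. The log2 fold changes of Il18r1 were 2.52 (standard error 0.73, adjusted p = 0.0904) and -2.1 (standard error 0.71, adjusted p = 0.186), and 1.25 and -0.84 without replicate 3. Il1rl2, the receptor of the IL-36 cytokines, measured 1.11, 1.36 and 1.41 CPM in the 18 mo mice, 0.87, 2.73 and 7.65 in the 21 mo mice and 0.465, 0.894 and 1.27 in the 21 mo/O304 mice. Replicate 1 of the 21 mo group lay below the 18 mo mice. Il1r1, the signalling IL-1 receptor, overlapped between the groups, with a log2 fold change of 0.90 (standard error 0.51, adjusted p = 0.289) that was 0.10 without replicate 3. Il1rap, the shared accessory chain, differed little at 0.10 (standard error 0.21, adjusted p = 0.793).

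Several of these genes are neighbours. The 6 members Il1r2, Il1r1, Il1rl2, Il1rl1, Il18r1 and Il18rap lie between 40074079 and 40551705 on chromosome 1, each less than 200000 bases from the next. All 6 were tested, all had higher means in the 21 mo mice (3 at an unadjusted p under 0.05, against 14% of all genes) and all had lower means in the 21 mo/O304 mice than in the 21 mo mice (4 at that p, against 12.4% of all genes). On chromosome 2, 6 members from Il1f8 to Il1rn lie between 24153161 and 24351494, of which Il1f9, Il1f6 and Il1rn passed the filter and had higher means in the 21 mo mice at an unadjusted p under 0.05. In contrast, the 4 members Il24, Il20, Il19 and Il10 on chromosome 1 between 130882074 and 131024974 held no tested gene. These groupings were formed after the values were seen. Il1r2 entered the tests through the 21 mo mice alone, and Il1f6 and Il1f9 through 3 libraries each.

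**Figure D4:**
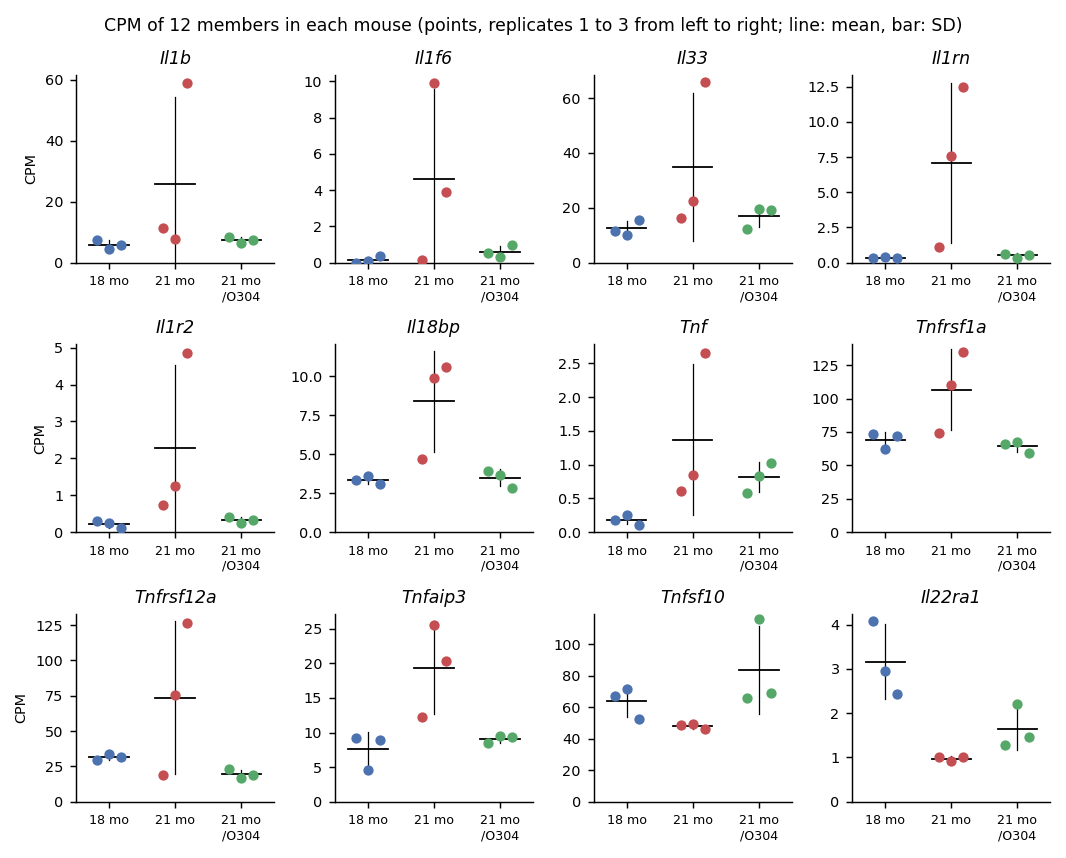
CPM of 12 members in each mouse (points, replicates 1 to 3 from left to right), with the mean (horizontal line) and SD (vertical line, drawn down to 0 at most) of each group. Replicate 1 of the 21 mo group lies nearest the 18 mo mice for Il1rn, Tnfrsf1a, Tnfaip3 and Il18bp, Tnfsf10 is lowest in the 21 mo mice, and Il22ra1 is highest in the 18 mo mice.

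Of the common gamma chain and type 2 families, which carry lymphocyte growth and allergic signals, 3 of 9 cytokines and 10 of 12 receptors were tested, and 9 of the 10 receptors had higher means in the 21 mo mice. Il2rg, the common gamma chain itself, measured 2.54, 2.53 and 3.96 CPM in the 18 mo mice, 5.35, 5.23 and 6.09 in the 21 mo mice and 4.36, 6.02 and 4.2 in the 21 mo/O304 mice. All 21 mo mice lay above the 18 mo mice, and the 21 mo/O304 mice lay above the 18 mo mice and overlapped with the 21 mo mice. Its log2 fold change was 0.88 (standard error 0.27, adjusted p = 0.0977) between 21 mo and 18 mo, -0.19 (standard error 0.26, adjusted p = 0.677) between 21 mo/O304 and 21 mo, and 0.69 (standard error 0.27, adjusted p = 0.472) between 21 mo/O304 and 18 mo. Il13ra1, an IL-13 receptor chain, was at 57.5, 70.3 and 73.5 CPM in the 18 mo mice, 93.9, 88.3 and 95.3 in the 21 mo mice and 74.5, 93.9 and 76.0 in the 21 mo/O304 mice. Log2 fold changes of Il13ra1 were 0.46 (standard error 0.14, adjusted p = 0.0929) and -0.18 (standard error 0.14, adjusted p = 0.439).

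Il4ra, the IL-4 receptor chain, stood at 28.2, 27.9 and 28.7 CPM in the 18 mo mice, 32.3, 37.5 and 108 in the 21 mo mice and 34.0, 30.4 and 35.1 in the 21 mo/O304 mice, so that replicate 3 of the 21 mo group held most of its difference. The log2 fold change was 1.07 (standard error 0.40, adjusted p = 0.138) with that library and 0.28 without it. Il7r, the IL-7 receptor of lymphocytes, followed another order, with 0.867, 1.36 and 1.3 CPM in the 18 mo mice, 5.08, 1.25 and 4.95 in the 21 mo mice and 1.34, 3.4 and 1.91 in the 21 mo/O304 mice, and here replicates 1 and 3 of the 21 mo group were the high ones. Il15ra was lower in all 21 mo mice than in the 18 mo mice (-0.46 (standard error 0.19, adjusted p = 0.176)), and Il15, its ligand, measured 11.1, 14.1 and 12.8 CPM in the 18 mo mice, 14.4, 9.95 and 4.12 in the 21 mo mice and 9.77, 14.2 and 21.2 in the 21 mo/O304 mice. IL-15 is known to be presented on the cell surface by this receptor chain, and for neither gene did the adjusted p pass.

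No cytokine of the IL-6 and IL-12 families passed the filter. Il6, the inducer of the acute phase response (chromosome 5, 30013114 to 30019981, plus strand), had 1, 0 and 0 counts in the 18 mo mice, 1, 8 and 83 counts in the 21 mo mice, and 1, 0 and 1 counts in the 21 mo/O304 mice. Its 83 counts in replicate 3 equalled 3.8 CPM, and Il11 had 81 counts there and 23 in replicate 2, with 0 in replicate 1. Their receptors were tested in 6 of 11 cases. Il6ra, the IL-6 binding chain, measured 4.34, 3.14 and 5.32 CPM in the 18 mo mice, 6.69, 6.99 and 15.2 in the 21 mo mice and 4.88, 6.79 and 5.48 in the 21 mo/O304 mice. It was higher in every 21 mo mouse than in the 18 mo mice, with a log2 fold change of 1.17 (standard error 0.36, adjusted p = 0.0991) and, without replicate 3, 0.66. Il6st did not separate the groups, with 184, 191 and 203 CPM in the 18 mo mice, 176, 216 and 218 in the 21 mo mice and 170.2, 216 and 187 in the 21 mo/O304 mice and a log2 fold change of 0.08 (standard error 0.15, adjusted p = 0.756). Il11ra1 was lower in all 21 mo mice than in the 18 mo mice, at 99.0, 113 and 110.0 CPM in the 18 mo mice, 80.1, 67.8 and 77.5 in the 21 mo mice and 82.0, 79.3 and 105 in the 21 mo/O304 mice. This is a log2 fold change of -0.51 (standard error 0.14, adjusted p = 0.0844). Near-identical copies of Il11ra1 (Il11ra2) and 6 overlapping genes make its count uncertain.

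In the IL-10 family, Il10, which restrains macrophages, had 42 counts in replicate 3 of the 21 mo group, 1 count in replicate 2 and 0 in the other 7 libraries, and no cytokine of the family was tested. The signs differed among the receptors. Il22ra1, the epithelial receptor chain of IL-22 (chromosome 4, 135728172 to 135752140, plus strand), measured 4.09, 2.96 and 2.43 CPM in the 18 mo mice, 1.00, 0.909 and 1.01 in the 21 mo mice and 1.28, 2.21 and 1.46 in the 21 mo/O304 mice. It was lowest in the 21 mo mice, which were tightly spaced, and highest in the 18 mo mice, with no overlap among the 3 groups. The log2 fold change was -1.69 (standard error 0.35, adjusted p = 0.0626), that is 3.23-fold lower in the 21 mo mice, 0.76 (standard error 0.35, adjusted p = 0.253) between 21 mo/O304 and 21 mo, and -0.93 (standard error 0.34, adjusted p = 0.449) between 21 mo/O304 and 18 mo. With replicate 3 of the 21 mo mice left out, it was -1.73 against the 18 mo mice. Il10ra, the IL-10 receptor of leukocytes, measured 10.5, 11.5 and 11.7 CPM in the 18 mo mice, 13.1, 17.2 and 33.3 in the 21 mo mice and 12.6, 19.1 and 14.1 in the 21 mo/O304 mice. It was above the 18 mo mice in every 21 mo mouse, with a log2 fold change of 0.92 (standard error 0.32, adjusted p = 0.124). Il20rb overlapped between 18 mo and 21 mo but all 3 of the 21 mo/O304 mice lay below the 21 mo mice, with a log2 fold change of -1.81 (standard error 0.68, adjusted p = 0.201) that was -1.21 without 21 mo replicate 3.

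IL-17 family receptors were all tested, and 4 of the 5 had lower means in the 21 mo/O304 mice than in the 21 mo mice. Il17re, the receptor of IL-17C, measured 11.6, 5.61 and 5.83 CPM in the 18 mo mice, 10.2, 11.7 and 20.2 in the 21 mo mice and 9.01, 4.53 and 3.25 in the 21 mo/O304 mice. It had a log2 fold change of -1.33 (standard error 0.46, adjusted p = 0.187) between 21 mo/O304 and 21 mo. Il17rb, the receptor chain for IL-25, was at 8.42, 8.44 and 7.01 CPM in the 18 mo mice, 6.62, 12.8 and 24.6 in the 21 mo mice and 6.63, 7.15 and 6.81 in the 21 mo/O304 mice. Its log2 fold changes were 0.89 (standard error 0.39, adjusted p = 0.191) and -1.1 (standard error 0.39, adjusted p = 0.193), and without replicate 3 of the 21 mo mice 0.28 and -0.50. Il17rc was lower in the 21 mo/O304 mice by a log2 fold change of -0.63 (standard error 0.21, adjusted p = 0.186), and Il17rd by -0.69 (standard error 0.28, adjusted p = 0.218). Il17ra, the chain shared by the family, had the opposite sign, with 24.7, 31.4 and 31.3 CPM in the 18 mo mice, 32.0, 27.3 and 25.2 in the 21 mo mice and 36.9, 36.9 and 35.6 in the 21 mo/O304 mice. The 3 mice of the 21 mo/O304 group lay above all others, and the log2 fold change was 0.37 (standard error 0.14, adjusted p = 0.197) against 21 mo and 0.32 (standard error 0.14, adjusted p = 0.49) against 18 mo. Il17d was the only tested IL-17 cytokine and was lower in all 21 mo mice than in the 18 mo mice (-0.79 (standard error 0.31, adjusted p = 0.158)), and Il17a had at most 6 counts in a library.

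Outside these families, Il34 measured 35.9, 45.5 and 38.2 CPM in the 18 mo mice, 30.0, 72.1 and 84.7 in the 21 mo mice and 40.9, 46.4 and 44.6 in the 21 mo/O304 mice. Replicates 2 and 3 of the 21 mo group lay above the other 7 mice, while replicate 1 was the lowest of all 9. Log2 fold changes of Il34 were 0.64 (standard error 0.31, adjusted p = 0.227) and -0.50 (standard error 0.31, adjusted p = 0.359). Il16 measured 4.89, 5.98 and 7.41 CPM in the 18 mo mice, 7.56, 7.73 and 10.6 in the 21 mo mice and 6.75, 9.42 and 7.58 in the 21 mo/O304 mice. Every 21 mo mouse lay above the 18 mo mice, with a log2 fold change of 0.50 (standard error 0.24, adjusted p = 0.219).

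Of 13 TNF ligands, 10 were tested, and 9 had higher means in the 21 mo mice and lower means in the 21 mo/O304 mice than in the 21 mo mice. Tnf (chromosome 17, 35199381 to 35202007, minus strand) measured 0.186, 0.246 and 0.113 CPM in the 18 mo mice, 0.602, 0.852 and 2.66 in the 21 mo mice and 0.582, 0.834 and 1.02 in the 21 mo/O304 mice. It was above the 18 mo mice in all 6 of the older mice, and the 21 mo and 21 mo/O304 mice overlapped. Its log2 fold change was 2.89 (standard error 0.68, adjusted p = 0.0704) between 21 mo and 18 mo and 2.12 (standard error 0.69, adjusted p = 0.4) between 21 mo/O304 and 18 mo, against -0.77 (standard error 0.58, adjusted p = 0.443) between 21 mo/O304 and 21 mo. With replicate 3 of the 21 mo mice left out, the first of these was 1.95 and the last 0.16. Tnfsf13b, the B cell survival factor BAFF, measured 3.96, 2.16 and 4.41 CPM in the 18 mo mice, 6.76, 7.5 and 20.2 in the 21 mo mice and 4.07, 5.07 and 3.57 in the 21 mo/O304 mice. The 21 mo mice overlapped with neither other group. Log2 fold changes of Tnfsf13b were 1.71 (standard error 0.46, adjusted p = 0.0832) and -1.44 (standard error 0.46, adjusted p = 0.18). Without replicate 3 these were 1.0 and -0.74.

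Tnfsf10 differed in sign from the other ligands. It measured 67.3, 71.7 and 52.6 CPM in the 18 mo mice, 48.4, 49.6 and 46.3 in the 21 mo mice and 65.9, 116 and 69.1 in the 21 mo/O304 mice, so that the 21 mo mice lay below both other groups within a narrow range, and replicate 2 of the 21 mo/O304 group was the highest. Its log2 fold change was -0.41 (standard error 0.22, adjusted p = 0.265) between 21 mo and 18 mo and 0.80 (standard error 0.22, adjusted p = 0.175) between 21 mo/O304 and 21 mo. Tnfsf8, the CD30 ligand of lymphocytes, had 2, 0 and 3 counts in the 18 mo mice and 0.87, 0.568 and 7.79 CPM in the 21 mo mice, of which replicate 3 was far the highest. Tnfsf9, the 4-1BB ligand, was at 0.248, 0.431 and 0.735 CPM in the 18 mo mice, 0.937, 0.568 and 1.42 in the 21 mo mice and 0.291, 0.298 and 0.127 in the 21 mo/O304 mice. It had a log2 fold change of -2.0 (standard error 0.58, adjusted p = 0.175) between 21 mo/O304 and 21 mo. Tnfsf14 was higher in all 21 mo mice than in the 18 mo mice (1.21 (standard error 0.50, adjusted p = 0.171)), and Tnfsf15 lower in all 21 mo/O304 mice than in the 21 mo mice (-1.24 (standard error 0.44, adjusted p = 0.191)). Tnfsf12, which encodes TWEAK, did not separate the groups, at 9.57 ± 0.223, 10.9 ± 2.58 and 9.73 ± 1.46 CPM (SD, n = 3) in the 18 mo, 21 mo and 21 mo/O304 mice. Tnfsf12, Tnfsf13 and the fused gene Tnfsfm13 share sequence, so their counts are uncertain.

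TNF receptors with a death domain can trigger cell death or NF-kB. Tnfrsf1a (chromosome 6, 125349362 to 125362484, plus strand) measured 73.3, 62.2 and 71.8 CPM in the 18 mo mice, 74.6, 110.5 and 135 in the 21 mo mice and 66.2, 67.5 and 59.6 in the 21 mo/O304 mice. Each 21 mo mouse was above the mice of the other groups, narrowly in replicate 1, and the means were 69.1 ± 6.01, 107 ± 30.3 and 64.5 ± 4.26 CPM (SD, n = 3). The log2 fold changes were 0.63 (standard error 0.20, adjusted p = 0.102) and -0.73 (standard error 0.20, adjusted p = 0.175), and without replicate 3 they were 0.40 and -0.51. Tnfrsf10b, the receptor of TRAIL, measured 2.17, 3.51 and 3.34 CPM in the 18 mo mice, 3.34, 8.81 and 7.1 in the 21 mo mice and 3.37, 2.62 and 3.63 in the 21 mo/O304 mice. Replicates 2 and 3 of the 21 mo group were high. Log2 fold changes of Tnfrsf10b were 1.09 (standard error 0.38, adjusted p = 0.119) and -1.0 (standard error 0.37, adjusted p = 0.2). Tnfrsf21, the most abundant member, varied within the 21 mo group, at 288, 389 and 413 CPM in the 18 mo mice, 577, 462 and 207 in the 21 mo mice and 577, 394 and 424 in the 21 mo/O304 mice. Replicate 3, which was highest for most members, was lowest here, and the log2 fold change was 0.19 (standard error 0.35, adjusted p = 0.75). Tnfrsf25 was lower in all 21 mo mice than in the 18 mo mice, at a log2 fold change of -0.73 (standard error 0.40, adjusted p = 0.269).

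Among the 13 TNF receptors without a death domain, 9 were tested. Tnfrsf12a (chromosome 17, 23675445 to 23677468, minus strand), which is known to be induced in injured tissue, measured 29.4, 33.6 and 31.7 CPM in the 18 mo mice, 18.8, 75.8 and 127 in the 21 mo mice and 22.8, 16.7 and 19.0 in the 21 mo/O304 mice. Replicates 2 and 3 of the 21 mo group lay far above all other mice, while replicate 1 was below the 18 mo mice and within the range of the 21 mo/O304 mice, which were all below the 18 mo mice. Its log2 fold change was 1.22 (standard error 0.52, adjusted p = 0.178) between 21 mo and 18 mo, -1.92 (standard error 0.53, adjusted p = 0.175) between 21 mo/O304 and 21 mo, and -0.69 (standard error 0.52, adjusted p = 0.711) between 21 mo/O304 and 18 mo. Without replicate 3 the first 2 were 0.56 and -1.27, and without replicate 1 they were 1.7 and -2.38. Tnfrsf1b, the TNF receptor of leukocytes and endothelium, measured 8.42, 7.95 and 13.6 CPM in the 18 mo mice, 11.6, 20.9 and 47.0 in the 21 mo mice and 8.66, 14.7 and 10.6 in the 21 mo/O304 mice. Replicate 3 of the 21 mo group was far the highest, and replicate 1 lay within the range of the 18 mo mice. For Tnfrsf1b the log2 fold changes were 1.41 (standard error 0.47, adjusted p = 0.113) and -1.23 (standard error 0.47, adjusted p = 0.204), and 0.68 and -0.51 without replicate 3.

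Tnfrsf19, Tnfrsf9 and Tnfrsf13c of the same class did not pass the filter. Tnfrsf19 had 146 counts in replicate 3 of the 21 mo group, 12 in replicate 2 and 5 or fewer in each of the other 7 libraries. Tnfrsf9, the lymphocyte receptor 4-1BB, had 64 counts in replicate 3. Tnfrsf17, a receptor for BAFF on plasma cells, had 2 counts in each 18 mo mouse and 0.698, 0.536 and 0.637 CPM in the 21 mo/O304 mice. All 3 lay above the 18 mo mice, and 2 of them above all 21 mo mice, whose values were 0.134, 0.227 and 0.55 CPM. No fold is given, since the 18 mo level lies under the floor of 3 counts a library. The decoy receptors Tnfrsf11b, Tnfrsf22 and Tnfrsf23 had higher means in the 21 mo mice than in the 18 mo mice, none with an unadjusted p under 0.05. Tnfrsf11b, or osteoprotegerin, which binds the ligand RANKL, reached 3.99 CPM in replicate 3 and at most 1.02 CPM elsewhere. Tnfrsf22 and Tnfrsf23 are related genes that lie near each other on chromosome 7. Their sequences were not compared here, so whether some of their reads were exchanged is not known.

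Tnfaip3, or A20 (chromosome 10, 19000910 to 19015657, minus strand), measured 9.17, 4.62 and 8.88 CPM in the 18 mo mice, 12.2, 25.6 and 20.3 in the 21 mo mice and 8.43, 9.48 and 9.3 in the 21 mo/O304 mice. All 21 mo mice were above all other mice, with the highest value in replicate 2 and not in replicate 3. The log2 fold change was 1.36 (standard error 0.32, adjusted p = 0.0716), or 2.56-fold, against the 18 mo mice, and -1.1 (standard error 0.32, adjusted p = 0.175) for the 21 mo/O304 mice against the 21 mo mice. It was 1.3 and -1.05 without replicate 3.

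The 21 mo/O304 and 18 mo groups differ in age, in time after surgery and in treatment. In the 21 mo/O304 mice, 46 of 72 members were higher and 26 lower on average (50.4% and 49.6% of all genes). The median log2 fold change of the members was 0.18, against 0.003 over all genes. EdgeR called 0 members and 0% of all genes, with a smallest adjusted p of 0.337. The spread in this test was pooled over all 3 groups, so the widely varying 21 mo mice enter it. At an unadjusted p under 0.05, 5 members were higher and 1 lower (4.33% and 5.33% of all genes), and 11 and 3 did not overlap (13.2% and 13.3%). The 5 were Tnfrsf17, Tnf, Il1f9, Il2rg and Il17ra, and the gene that was lower was Il22ra1. Limma voom with quality weights called 2 members higher, Tnf and Tnfrsf17, where 1.04% of all genes were called higher, and DESeq2 called none. Tnfrsf17 reached the level of the filter in 21 mo/O304 mice alone, and Il1f9 in 3 libraries of the older mice. Their p-values and the call of Tnfrsf17 therefore do not count as support for a difference. Il1rn had a log2 fold change of 0.53 (standard error 0.83, adjusted p = 0.887) here.

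Markers of several cell types also differed between the groups. At an unadjusted p under 0.05, 14% of all genes were higher in the 21 mo mice than in the 18 mo mice. The 9 macrophage markers summed to 362, 239 and 321 CPM in the 18 mo mice, 488, 582 and 1651 in the 21 mo mice and 382, 385 and 394 in the 21 mo/O304 mice, and 8 of the 9 were higher in the 21 mo mice at an unadjusted p under 0.05, none of the 9 being at 0. The 6 neutrophil markers summed to 12.3, 6.65 and 12.4 CPM in the 18 mo mice, 64.0, 18.8 and 55.8 in the 21 mo mice and 14.0, 14.4 and 22.8 in the 21 mo/O304 mice, and 4 of the 4 tested were higher at that p. The sum of the 4 injured tubule markers was 42.9, 50.1 and 42.6 CPM in the 18 mo mice, 67.6, 1063 and 1476 in the 21 mo mice and 42.7, 39.8 and 60.2 in the 21 mo/O304 mice, and that of the 5 proximal tubule markers 7988, 10901 and 10481 CPM in the 18 mo mice, 8061, 3837 and 1043 in the 21 mo mice and 8146, 9636 and 10036 in the 21 mo/O304 mice. Injured tubule markers were high and proximal tubule markers low in replicates 2 and 3 of the 21 mo group. In these libraries 49 and 57 of the 72 members lay above all 18 mo mice, as did 37.3% and 41.3% of all genes. The neutrophil sum was highest in 21 mo replicate 1, where 34 members and 31.1% of all genes lay above the 18 mo mice. The part of these cell types in the members' differences was not tested.

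Lymphocyte markers followed another order. The 10 T cell markers summed to 16.7, 12.6 and 19.8 CPM in the 18 mo mice, 41.7, 16.7 and 23.6 in the 21 mo mice and 16.5, 52.1 and 19.7 in the 21 mo/O304 mice, with the highest sums in 21 mo replicate 1 and 21 mo/O304 replicate 2, and 0 of 10 differed at an unadjusted p under 0.05. The 5 B cell markers summed to between 3.76 and 6.28 CPM in the 18 mo mice, 4.15 and 15.1 CPM in the 21 mo mice and 5.99 and 16.2 CPM in the 21 mo/O304 mice. Plasma cell markers, of which Tnfrsf17 is among the 4, summed to 139, 104 and 224 CPM in the 18 mo mice, 89.8, 106 and 629 in the 21 mo mice and 215, 695 and 561 in the 21 mo/O304 mice. Ptprc, the general leukocyte marker, was at 13.6 to 19.9, 29.8 to 42.4 and 22.6 to 41.7 CPM in the 3 groups. Fibroblast markers summed to 141, 155 and 221 CPM in the 18 mo mice, 111, 317 and 821 in the 21 mo mice and 94.6, 142 and 226 in the 21 mo/O304 mice. Of the 6 fibroblast markers, 2 were higher in the 21 mo mice at an unadjusted p under 0.05 (14% of all genes). Between 21 mo/O304 and 21 mo, 2 of them were lower at that p (12.4% of all genes). The 4 mast cell markers summed to at most 1.4 CPM in any library. At an unadjusted p under 0.05, 3 of 4 tested adipocyte markers were higher in the 21 mo/O304 than in the 21 mo mice (8.27% of all genes). Against the 18 mo mice 3 were higher at that p (4.33% of all genes). The median log2 fold changes were 4.68 and 3.95. The 5 genes of the list summed to 90.5, 46.2 and 77.7 CPM in the 18 mo mice, 129, 53.9 and 31.7 in the 21 mo mice and 204, 106 and 164 in the 21 mo/O304 mice. Of these 5, 1 had a count of 0 in every 21 mo library. Whether the adipocyte markers passed the filter through the 21 mo/O304 mice alone was not examined. Their medians and the counts at that p are therefore description only. The 5 endothelial markers summed to 231, 195 and 288 CPM in the 18 mo mice, 240.3, 153 and 128 in the 21 mo mice and 215, 375 and 283 in the 21 mo/O304 mice, and 2 of 5 were higher in the 21 mo/O304 mice than in the 21 mo mice at that p, with a median of 0.61. In that comparison 8.27% of all genes were higher at that p. The part of these cell types in the members' differences was not tested either.

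**Figure D5:**
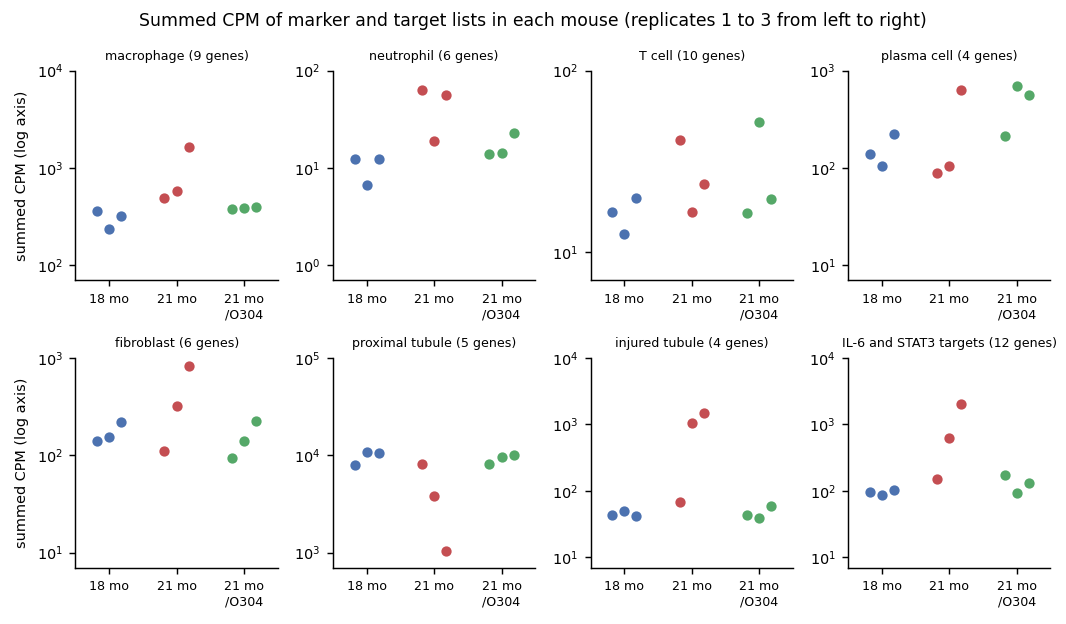
Summed CPM (log axis) of marker lists and of the list of IL-6 and STAT3 targets in each mouse, with replicates 1 to 3 from left to right in each group. Macrophage, injured tubule and target sums were highest in 21 mo replicate 3, proximal tubule sums were lowest there, and T cell and plasma cell sums peaked in 21 mo/O304 replicate 2.

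Genes of the same pathways, which apart from Il1rap carry symbols outside those chosen, gave the following counts. EdgeR called 0 of them in any list or comparison. At an unadjusted p under 0.05, 14% of all genes were higher and 12% lower in the 21 mo mice than in the 18 mo mice. Between 21 mo/O304 and 21 mo, 8.27% of all genes were higher and 12.4% lower. Among 16 tested cytokines and receptors of the interleukin families that carry other symbols, 8 were higher and 1 lower in the 21 mo mice at an unadjusted p under 0.05, and 8 were lower in the 21 mo/O304 mice than in the 21 mo mice, with medians of 1.17 and -0.82. Of 10 TNF superfamily genes with other symbols, 2 were higher and 2 lower in the same comparisons, with medians of 0.27 and -0.34. Downstream, 3 of 19 genes of the JAK, STAT and SOCS families were higher and 1 lower in the 21 mo mice (median 0.26). In the 21 mo/O304 mice 3 of them were lower (median -0.13). The counts of 3 in this list were close to the shares of all genes. Of 20 TNF receptor signalling genes, 5 were higher in the 21 mo mice (median 0.09), and 5 lower and 1 higher in the 21 mo/O304 mice (median -0.09). Of 13 genes of IL-1 and IL-18 processing and signalling, with Il1rap among them, 7 were higher and 1 lower in the 21 mo mice (median 0.53), and 3 lower and 1 higher in the 21 mo/O304 mice (median -0.47).

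The medians of the target lists lay farther from 0 than those of the signalling lists. At an unadjusted p under 0.05, 12 of 15 tested NF-kB targets were higher in the 21 mo mice, against 14% of all genes. In the 21 mo/O304 mice 11 were lower, against 12.4% of all genes, and the medians were 1.08 and -1.12. Of 10 tested IL-6 and STAT3 targets, 9 were higher in the 21 mo mice and 9 lower in the 21 mo/O304 mice, with medians of 2.5 and -1.95. The 12 targets summed to 95.6, 87.7 and 102 CPM in the 18 mo mice, 149.6, 616 and 2028 in the 21 mo mice and 172, 92.7 and 132 in the 21 mo/O304 mice. Lcn2 of this list and Vcam1 of the NF-kB list also stand among the injured tubule markers. Csf1r and Csf3r, listed with the cytokines and receptors that carry other symbols, also stand among the macrophage and neutrophil markers.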

How the data were processed

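The deposited table holds, for each of 9 kidney libraries, raw counts per gene and FPKM values. Per the labels' processing notes and the study's methods, the count of each gene was obtained by the authors from filtered paired-end reads, with HISAT2 2.0.5 as the aligner, featureCounts 1.5.0-p3 as the counter and GRCm38 (mm10) as the genome. The authors derived FPKM from count and gene length. Whether reads were counted by strand or at several places is not given in the sources used here. The table's columns of group means, fold changes and p-values, made by the authors with DESeq2 1.20.0, were not used.

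The whole table was fitted with the edgeR 4.0.16 quasi-likelihood test (R 4.3.3), with TMM normalization, 3 group means and no covariate over all 9 libraries, which leaves 6 residual degrees of freedom. Genes were kept by filterByExpr (at least 10 counts in enough libraries, at least 15 in all), which left 15902. P-values are two-sided and adjusted by the Benjamini-Hochberg method over all genes tested, and a gene was called at an adjusted p under 0.05. CPM are TMM-normalized, log2 CPM used a prior count of 2, and limma 3.58.1 and DESeq2 1.42.0 served as alternatives. The scripts were tested on simulated data. The edgeR p-values rest on a spread per gene that is pooled over the mice of all 3 groups and moderated across genes. They do not measure the spread within the compared groups alone.

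The members and the lists of pathway and marker genes were chosen with earlier results of these data known. Genes were named where they were among the 12 tested members with the smallest p in a comparison, among the 12 members with the highest mean FPKM, or in a written list of well-known members. Further members were picked with their values in view, namely Il11ra2, Il17a, Il17d, Il17rb, Il17rd, Il19, Il1f8, Il1rap, Il20, Il20rb, Il24, Tnfrsf13c, Tnfrsf22, Tnfrsf23, Tnfrsf9, Tnfsf13, Tnfsf14, Tnfsf15 and Tnfsfm13. Sequences of the members were not used here.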

Additional observations from a re-analysis of the deposited data

How the results depend on the processing

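No member was called in the analysis of all libraries, and calls depended on the method and on the 21 mo mice. Limma voom with quality weights called 34 members higher and 7 lower between 21 mo and 18 mo (26.3% and 26.6% of all genes). It called 7 higher and 24 lower between 21 mo/O304 and 21 mo (21.2% and 19.8%). Between 21 mo/O304 and 18 mo it called 2 higher (1.04%). DESeq2 called 20 and 2 in the first comparison (6.9% and 5.41% of all genes) and 1 and 11 in the second (1.71% and 4.04%). EdgeR with every gene of at least 1 count called 7 higher in the first (1.43% of all genes). When each replicate was left out in turn, the calls between 21 mo and 18 mo ranged from 0 to 32 higher and from 0 to 2 lower, and those between 21 mo/O304 and 21 mo from 0 to 1 higher and from 0 to 28 lower. All of the calls in these ranges arose without 21 mo replicate 1. In that setting 13.6% of all genes were called higher and 11.9% lower in the first comparison. In the second, 10.6% were called higher and 12.6% lower. The cause was not tested.

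The median log2 fold change of the members kept its sign in every setting. Between 21 mo and 18 mo it was 0.43 with limma voom, 0.33 with limma on log2(FPKM + 1) and 0.41 to 0.99 over the replicates left out. Between 21 mo/O304 and 21 mo it was -0.20, -0.19 and -0.84 to -0.15. Mice share only a number across groups, and the correlation of deviations between same-numbered mice ranged from -0.13 to 0.17. With the replicate block, 0 members were called in any comparison and the medians were 0.70, -0.50 and 0.21.

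Of the log2 fold changes of named members under the alternatives, 1289 kept their sign and their side of the threshold, 145 passed it, and 4 changed sign. With each replicate left out in turn, the log2 fold change of Tnfrsf21 between 21 mo and 18 mo ranged from -0.10 to 0.50, negative without 21 mo replicate 1, and that of Il1rap from -0.0021 to 0.22, negative without 21 mo replicate 2. Between 21 mo/O304 and 21 mo, that of Tnf ranged from -1.13 to 0.16 and that of Il10rb from -0.29 to 0.023, both positive without 21 mo replicate 3. Members with few reads, such as Tnf and Tnfsf8 in the 18 mo mice, rest on counts near the floor of 3, so their fold changes are imprecise. With 3 mice per group and a 21 mo group that varied widely, an adjusted p above 0.05 does not show that a member was unaltered.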
